A study of Mus musculus with 6 samples.

Results

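The Wnt, Fgf and Bmp families of secreted signals, their main receptors and the secreted Wnt antagonists of the Sfrp family were examined in the mammary gland on 6 Affymetrix mouse arrays. Members were the probe sets whose platform annotation names exactly 1 gene with a symbol that starts with Wnt, Fzd, Sfrp, Fgf or Bmp and a digit, or with Fgfr or Bmpr. This gave 75 of the 12488 probe sets on the array, for 61 of 8251 genes named in this way. The rule works by spelling and also takes in Fgfr1op2, a cytoplasmic protein known from a fusion with the receptor, and Bmp2k, an intracellular kinase induced by Bmp2. The control group was wild type and the other group carried a transgene that overexpresses luteinizing hormone (LH), the pituitary hormone that drives gonadal steroid production. Both groups were virgin F1 CF-1/FVB mice, 16 weeks old, and thoracic glands were used. Each array held RNA pooled from 3 mice, with 3 arrays and 9 mice per group. The promoter and line of the transgene are not given in the labels used here.

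Wnt proteins bind Frizzled receptors (Fzd genes) together with the coreceptors Lrp5 and Lrp6 and stabilise beta-catenin, which acts with TCF and LEF factors in the nucleus, while Sfrp proteins bind Wnts outside the cell. FGFs signal through receptor tyrosine kinases (Fgfr genes) to the MAP kinase cascade, and BMPs through paired type I and type II receptors (Bmpr genes) to Smad1, Smad5 and Smad9. In the mammary gland these families are known for the placement and outgrowth of the bud, for Fgfr2-dependent branching of ducts and for Wnt4-dependent side branching in response to progesterone.

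The deposited values are linear signals, one for each probe set and array, without detection calls. A probe set was therefore taken as above background when its mean over the 6 arrays reached 336.0, the 40th percentile of all such means. Of the 75 member probe sets 24, for 20 genes, passed this filter and were tested, and 51 lay below it. The group means were both above the filter for 20 of the 24, while Fgfr2 93091_s_at, Fzd4 95771_i_at, Bmp6 161028_at and Sfrp4 92469_at passed it through the wild type arrays alone. The members nearest below the filter were Bmpr2 (mean 324.4), Wnt10a (304.8) and Fzd1 (285.4), and those nearest above were Sfrp4 (359.5), Bmp6 161028_at (366.1) and Wnt1 (414.3). The filter is lenient, since the 15 control probe sets made for the opposite strand had a median signal of 324.6 and reached 1212.4. Among tissue markers, 9 of 9 milk protein genes, 17 of 17 luminal epithelial markers and 9 of 11 basal and myoepithelial markers lay above the filter, the exceptions being the keratin genes Krt14 and Krt5.

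**Figure D1:**
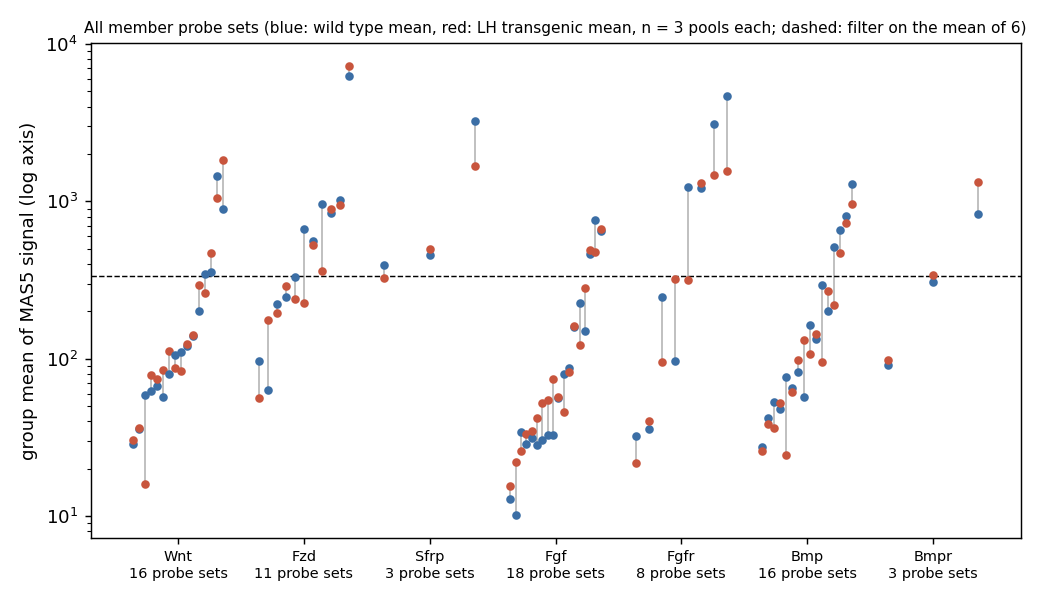
Group means of the MAS5 signal (log axis) for every member probe set, arranged by gene family and sorted within it. Blue points are wild type and red points LH transgenic means of 3 pools, and the dashed line is the filter at 336.0. Most Wnt, Fgf and Bmp ligand probe sets lie below the line, and the receptors and Sfrp genes more often above it.

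Each difference is the LH transgenic mean of log2(signal + 80.0) less the wild type mean, from limma fitted over all 7453 probe sets above the filter, with Benjamini-Hochberg adjusted p-values and a threshold of 0.05. In the LH transgenic glands the ligand gene Wnt5b and the receptor gene Bmpr1a were higher, and the receptor genes Fgfr1 and Fgfr2 and the antagonist gene Sfrp2 were lower. The probe sets of the receptor gene Fzd4 disagreed, 2 being lower and the brightest not called, as did those of Fgf11, 1 being lower and the dimmer one, under the filter, running the other way. In all, 2 of the 24 tested member probe sets rose and 7 fell. Of the 24, 5 were called with a change of at least 2-fold, against 499 of all 7453 tested probe sets (6.7%). The 5 included the 2 called members that passed the filter through the wild type arrays alone. Across the array 10.5% of tested probe sets rose and 10.8% fell, 21.3% in all, against 8.33% and 29.2% of the tested members. The median difference of the tested members was -0.20, that of all tested probe sets 0.02. Among the 20 members with both group means above the filter 2 rose and 5 fell, and no matching share over the array was counted. Whole glands were measured, so fewer cells of a type and less RNA per cell cannot be told apart. These counts describe a set chosen with earlier results known, and nothing particular to the set is read from them.

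**Figure D2:**
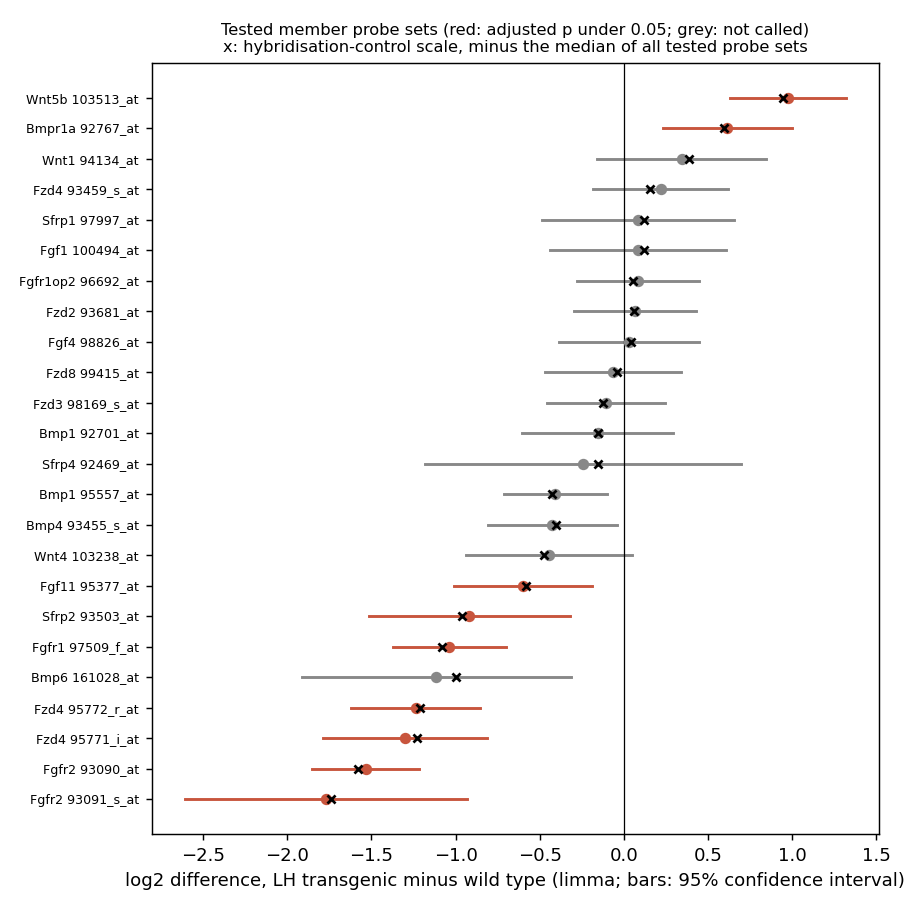
Log2 differences (LH transgenic minus wild type) of the 24 tested member probe sets with their 95% confidence intervals. Red marks an adjusted p under 0.05, grey the rest, and crosses the value with bacterial hybridisation controls as the scale after subtracting the median of all tested probe sets. Wnt5b (0.98) lies at the top and Fgfr2 93091_s_at (-1.77) at the bottom. The crosses stay close to the points by construction, since each array was divided by a single factor and the common shift then removed.

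Among the Wnt ligands, Wnt5b, which signals mainly without beta-catenin, rose. Its signal was 877.9, 988.7 and 809.9 in wild type pools 1 to 3 and 1588.8, 2084.0 and 1849.2 in LH transgenic pools 1 to 3. Every LH transgenic pool was well above every wild type pool. The mean went from 892.2 ± 90.2 to 1841 ± 248 (SD, n = 3 each; log2 difference 0.98, SE 0.15, limma adjusted p 0.00257). MAS5 sets every array to one overall level, and with the bacterial hybridisation controls as the scale the median of all tested probe sets moved from 0.02 to -0.62. On that scale Wnt5b differed by 0.33 (adjusted p 0.269), which is 0.95 above the median of all. For every probe set this distance is close to the first difference by construction, because a single factor per array moves all probe sets nearly alike.

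Wnt4, the progesterone-responsive ligand of luminal cells, read 1269.7, 1820.4 and 1271.0 in the wild type pools and 763.8, 1357.2 and 1054.9 in the LH transgenic pools. The groups overlapped, because LH transgenic pool 2 lay above wild type pools 1 and 3. The log2 difference was -0.44 with a 95% interval of -0.94 to 0.05 (adjusted p 0.186). Wnt1, known as an insertion site of mouse mammary tumour virus, read 385.0, 267.8 and 416.2 in the wild type and 551.9, 483.7 and 381.0 in the LH transgenic pools, again with overlap. Its log2 difference was 0.34 with an interval of -0.16 to 0.85 (adjusted p 0.311).

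The other 13 Wnt probe sets lay below the filter, with signals between 14.1 and 454.1. They stand for Wnt2b, Wnt3, Wnt3a, Wnt5a, Wnt6, Wnt7a, Wnt7b, Wnt8a, Wnt10a, Wnt11 and, with 3 probe sets, Wnt10b. Wnt5a, the closest relative of Wnt5b, had 190.9 to 207.8 in the wild type and 224.3 to 359.2 in the LH transgenic pools. These groups did not overlap, but without the filter on dim probe sets its limma adjusted p was 0.293. Wnt11 had 36.2 to 102.0 against 14.1 to 19.8, and Wnt8a 46.0 to 63.5 against 79.5 to 92.8, also without overlap and without a call.

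Of the Frizzled receptor genes, Fzd4, which binds Wnts and the vascular ligand norrin, gave contradictory readings. Probe set 95772_r_at read 814.7, 1065.0 and 1027.5 in the wild type pools and 368.6, 354.6 and 364.1 in the LH transgenic pools. This probe set fell by 1.24 on the log2 scale (SE 0.17, limma adjusted p 0.00148). Probe set 95771_i_at fell from 670.9 ± 79.9 to 227.8 ± 60.1 (log2 difference -1.30, SE 0.22, limma adjusted p 0.00357), also without overlap between groups.

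The third Fzd4 probe set, 93459_s_at, read 4797.1, 7578.6 and 6528.7 in the wild type and 6281.5, 7429.6 and 8095.7 in the LH transgenic pools. Its groups overlapped, and the log2 difference was 0.22 with an interval of -0.18 to 0.62 (adjusted p 0.42), or -0.46 (0.16 above the median of all) with the hybridisation controls as the scale. Within each array, the log2 ratio of 93459_s_at to 95772_r_at was 2.45 to 2.74 in the wild type and 3.83 to 4.20 in the LH transgenic pools. The difference of 1.46 between the groups had an exact two-sided permutation p of 0.1, the smallest that 3 arrays against 3 allow, and 0.36 after adjustment over the 18 pairs of probe sets that share a gene. In Affymetrix names the letter i marks an incomplete probe set, r one whose design rules were relaxed, and s probes shared by several transcripts, so a single direction for Fzd4 cannot be given.

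The remaining tested Frizzled genes did not pass the test. Fzd2 had 848.0 ± 119.7 in the wild type and 890.4 ± 77.4 in the LH transgenic group, a log2 difference of 0.07 with an interval of -0.29 to 0.43. Fzd3 98169_s_at differed by -0.11 (interval -0.45 to 0.24) and Fzd8 by -0.06 (interval -0.47 to 0.34). The probe sets of Fzd1, Fzd6, Fzd7 and Fzd9 and a second one of Fzd3 lay below the filter, between 26.5 and 378.6. Of these, Fzd9 was at 54.7 to 75.1 in the wild type and 93.8 to 267.1 in the LH transgenic pools, without overlap and without a call (adjusted p 0.1 without the filter).

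Sfrp2, a Wnt-binding protein secreted mostly by stromal cells, read 2251.5, 4243.3 and 3237.8 in the wild type pools and 1936.5, 1106.0 and 1986.2 in the LH transgenic pools. The groups did not overlap, although wild type pool 1 lay close to LH transgenic pools 1 and 3. The mean fell from 3244 ± 996 to 1676 ± 494 (log2 difference -0.92, SE 0.27, limma adjusted p 0.036), a call kept in 9 of 16 other settings. Without wild type pool 2, wild type pool 3, LH transgenic pool 1 or LH transgenic pool 2 the adjusted p was 0.112, 0.102, 0.0562 and 0.0932. Sfrp1 (455.0 ± 91.1 against 499.7 ± 161.3) and Sfrp4 (393.5 ± 201.9 against 325.4 ± 171.5) did not pass the test, with intervals of -0.48 to 0.66 and -1.18 to 0.70.

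**Figure D3:**
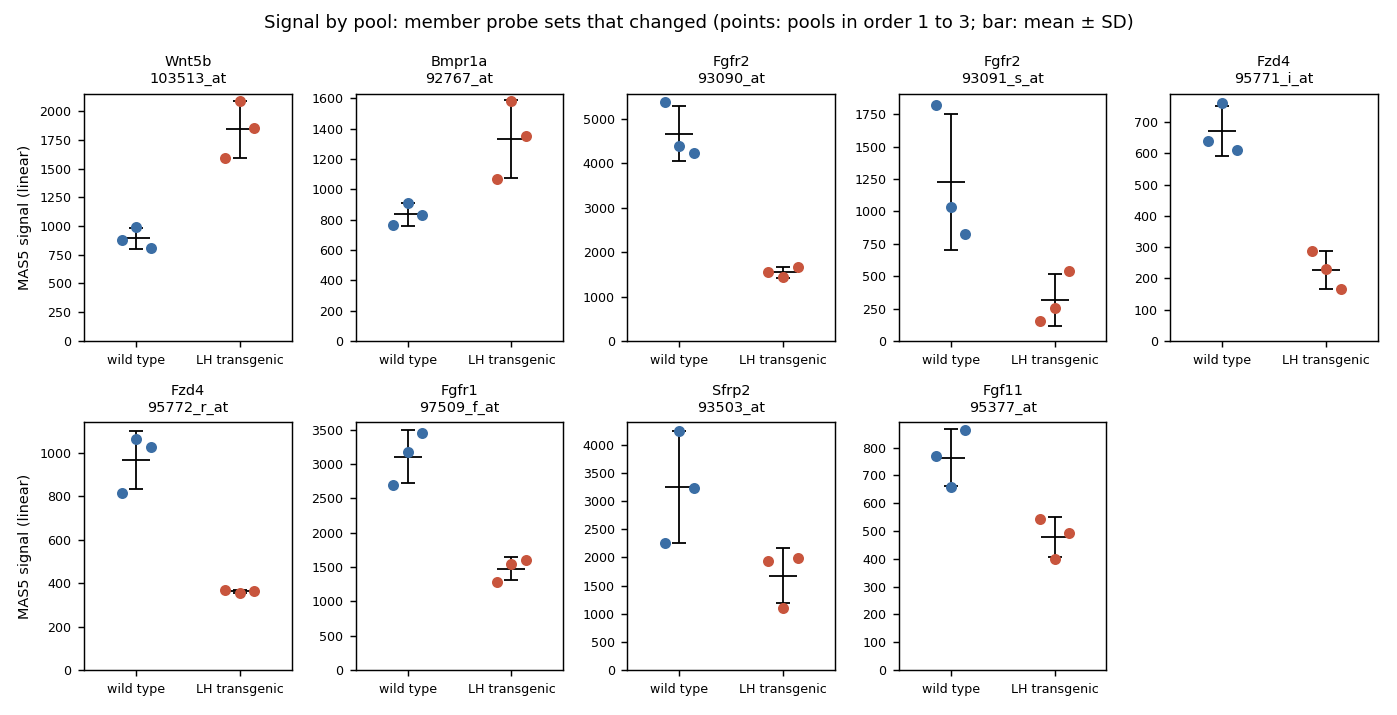
MAS5 signal (linear axis from 0) in each pool for the 9 member probe sets that changed. Points are pools 1 to 3 from left to right, blue for wild type and red for LH transgenic, and black bars show the mean ± SD. In each of the 9 panels the points of the groups do not overlap, and the Sfrp2 groups come closest relative to their axis.

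Among the tested members the largest decreases were those of the FGF receptor gene Fgfr2. Fgfr2, the receptor whose epithelial form is required for the mammary bud and for ductal branching, read 5379.2, 4400.1 and 4225.2 on probe set 93090_at in the wild type pools and 1550.9, 1430.7 and 1676.0 in the LH transgenic pools. The pools of each group lay close together and far from those of the other group. The mean fell from 4668 ± 622 to 1553 ± 123 (log2 difference -1.54, SE 0.14, limma adjusted p 0.000288), a 2.90-fold decrease on the scale with the pseudocount that was called in each of 16 other settings.

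A second Fgfr2 probe set, 93091_s_at, read 1824.2, 1030.1 and 827.6 in the wild type and 152.1, 253.9 and 543.0 in the LH transgenic pools (log2 difference -1.77, SE 0.37, limma adjusted p 0.00991). It passed the filter through the wild type arrays and spread more within each group. The third, 162171_f_at, lay below the filter with 212.1 to 282.7 against 49.7 to 128.6. It was the only one of the 51 dim members (1.96%) called when the filter was dropped (limma adjusted p 0.0452), where 2.88% of all dim probe sets were called. All 3 Fgfr2 probe sets were lower without overlap between groups, but only 93090_at had both group means above the filter. The within-array log2 ratio of 162171_f_at to 93090_at averaged 0.62 higher in the LH transgenic pools, and that to 93091_s_at 0.85 higher. For each ratio the exact permutation p was 0.1, adjusted 0.36, and no common size is given for the fall.

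Fgfr1, which signals in both epithelium and stroma, read 2690.6, 3174.6 and 3457.5 in the wild type and 1278.9, 1545.5 and 1594.4 in the LH transgenic pools. No pool of one group came near the other. The mean fell from 3108 ± 388 to 1473 ± 170 (log2 difference -1.04, SE 0.15, limma adjusted p 0.00179), called in each of 16 other settings. Its single probe set has the letter f in its name, which marks probes that can match a family of similar sequences. Fgfr2 162171_f_at carries the same letter. The letter s stands in the names of Fgfr2 93091_s_at, Fzd3 98169_s_at and Bmp4 93455_s_at, so shared probes limit these readings too.

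Fgfr4 (28.1 to 52.0) and Fgfr3 160919_r_at (7.3 to 69.4) lay far below the filter. The other Fgfr3 probe set, 162253_i_at, had 75.4 to 123.6 in the wild type and 161.9 to 435.1 in the LH transgenic pools, without overlap, and an adjusted p of 0.0542 when the filter was dropped. Fgfr1op2, which is not a receptor, had 1220 ± 69.6 against 1310 ± 233 (log2 difference 0.08, interval -0.28 to 0.45).

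Of 18 Fgf ligand probe sets 3 passed the filter. Fgf11 belongs to the intracellular FGFs, which are not secreted and do not act through the FGF receptors, and its probe sets moved apart. Probe set 95377_at read 770.4, 658.4 and 864.1 in the wild type and 541.8, 400.8 and 491.3 in the LH transgenic pools. It was lower in every LH transgenic pool (log2 difference -0.60, SE 0.18, limma adjusted p 0.0443), a call kept in 7 of 15 other settings and lost when any single pool was left out (adjusted p 0.057 to 0.155). The dimmer probe set 102574_at, below the filter, read 208.7, 77.7 and 164.5 against 298.1, 314.4 and 238.0, which is the opposite order. The within-array log2 ratio of 102574_at to 95377_at was -2.23 to -1.56 in the wild type and -0.85 to -0.29 in the LH transgenic pools (exact permutation p 0.1, adjusted 0.36), so no direction is given for the gene.

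Fgf1, a ligand of all FGF receptors, and Fgf4, an embryonic ligand, did not pass the test. Fgf1 had 460.7 ± 123.7 against 490.5 ± 110.9 (log2 difference 0.09, interval -0.44 to 0.61) and Fgf4 649.4 ± 89.1 against 668.9 ± 115.2 (0.03, interval -0.38 to 0.45). The stromal ligands that activate the epithelial form of Fgfr2 were dim. Fgf10 ranged from 38.4 to 143.5 over the 6 arrays, and Fgf7 read 129.6, 160.0 and 188.4 in the wild type and 83.7, 190.5 and 207.2 in the LH transgenic pools. Neither reached the filter, which does not show that the ligand was absent, and the groups of both overlapped. The other dim probe sets of this family, those of Fgf2, Fgf3, Fgf5, Fgf6, Fgf8, Fgf9, Fgf12, Fgf14, Fgf15, Fgf17 and Fgf18, lay between 5.6 and 134.4, and the groups overlapped for each of them but Fgf15, which had 30.2 to 37.8 in the wild type and 23.8 to 27.5 in the LH transgenic pools (adjusted p 0.617 without the filter). Fgf13, another intracellular FGF, stood at 217.4 to 233.5 in the wild type and 95.4 to 167.0 in the LH transgenic pools (adjusted p 0.104 without the filter).

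Bmpr1a, a type I BMP receptor, read 762.7, 910.6 and 828.0 in the wild type and 1067.8, 1578.9 and 1352.8 in the LH transgenic pools. Every LH transgenic pool was above every wild type pool. The mean went from 833.8 ± 74.1 to 1333 ± 256 (log2 difference 0.62, SE 0.17, limma adjusted p 0.0309). The call held in 8 of 16 other settings, and without any single pool other than LH transgenic pool 1 the adjusted p lay between 0.0513 and 0.101. With the bacterial hybridisation controls as the scale the difference turned to -0.026 (adjusted p 0.934). It is 0.59 above the median of all probe sets, a distance close to the first difference by construction. The type II receptor Bmpr2, just below the filter, had 278.7 to 343.3 against 319.6 to 356.6, and Bmpr1b, another type I receptor, 56.9 to 145.5 over the 6 arrays.

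No BMP ligand passed the test. Bmp6 was nearest to the threshold, with 569.0, 459.8 and 513.1 on 161028_at in the wild type and 276.3, 67.2 and 311.0 in the LH transgenic pools. The groups did not overlap, and LH transgenic pool 2 was far below the others. The log2 difference was -1.11 with an interval of -1.91 to -0.32 (limma adjusted p 0.052, between 1.71e-05 and 0.432 over 15 other settings, called in 6). The second Bmp6 probe set, 92372_at, below the filter, had 177.1 to 354.4 against 41.9 to 161.4, in the same order (adjusted p 0.0657 without the filter).

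Bmp4, a ligand of the mesenchyme around the early mammary bud, had 659.1 ± 53.7 on 93455_s_at in the wild type and 471.2 ± 43.9 in the LH transgenic group, again without overlap. Its difference was -0.42 with an interval of -0.80 to -0.04 (adjusted p 0.109). Bmp1 is not a BMP ligand but a protease that trims procollagens. Its probe set 95557_at had 1297 ± 88.6 against 958.0 ± 38.7 without overlap (log2 difference -0.41, interval -0.71 to -0.10, adjusted p 0.0608), while 92701_at had 808.6 ± 124.9 against 725.0 ± 172.4 with overlap (-0.15, interval -0.60 to 0.29). The probe sets of Bmp2, Bmp5, Bmp7, Bmp8a, Bmp8b, Bmp10, Bmp15 and Bmp2k and the second one of Bmp4 lay below the filter. The signals of the dim Bmp probe sets, the second of Bmp6 included, were between 2.1 and 373.4.

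**Figure D4:**
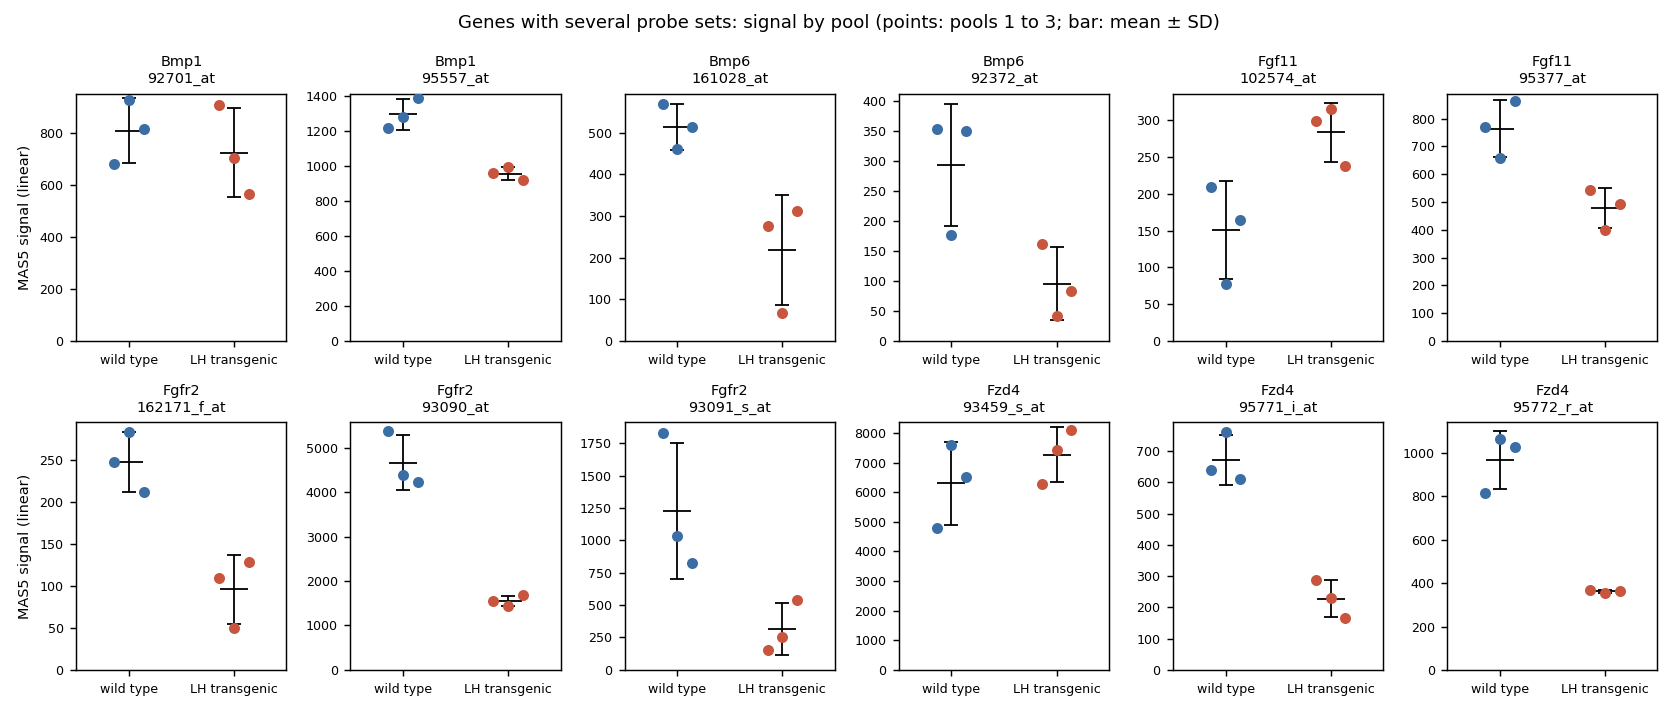
MAS5 signal (linear axis from 0) in each pool for the genes Bmp1, Bmp6, Fgf11, Fgfr2 and Fzd4, each measured by several probe sets. Points are pools 1 to 3, blue for wild type and red for LH transgenic, with the mean ± SD in black. The 3 Fgfr2 probe sets and both Bmp6 probe sets share a direction, whereas those of Fgf11 run in opposite directions and Fzd4 93459_s_at does not follow the other two.

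In total, the groups did not overlap for 12 of the 24 tested members (50%), against 40.4% of all tested probe sets. The LH transgenic pools were above for 2 of the 12 and below for 10. The 10 included a probe set each of Fgfr2, Fzd4 and Bmp6 that passed the filter through the wild type arrays alone. Such a pass favours lower LH transgenic pools. Fgfr2 and Fzd4 also each entered the 10 more than once. The directions of the 40.4% were not counted, so nothing is read from 10 against 2. Among the 51 members under the filter 10 did not overlap (19.6%), 5 in each direction, against 17.9% of all probe sets under the filter. The dim members were thus close to the array as a whole.

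Promoter sequences are shown for Fgfr2, which had the largest decrease, for Bmpr1a and Wnt5b, the genes called higher, and for Fzd4, whose probe sets disagreed. Of the 7 genes with a called probe set 6 matched the sequence table and Fgfr1 did not. The sequences are RefSeq windows of 300 bases (GRCm38.p6), from 250 before to 50 after the annotated start, taking the most 5′ of 3 windows for Wnt5b. Capitals mark GGGCGG, the GC box, on either strand, and copies that touch run together.
Fgfr2 (chr7:130266759-130267058, minus strand): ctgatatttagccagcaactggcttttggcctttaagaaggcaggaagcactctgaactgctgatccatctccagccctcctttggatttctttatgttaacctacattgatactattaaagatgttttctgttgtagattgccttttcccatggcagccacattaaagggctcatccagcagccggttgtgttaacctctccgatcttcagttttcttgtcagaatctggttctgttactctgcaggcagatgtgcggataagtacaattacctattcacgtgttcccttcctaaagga
Fzd4 (chr7:89404116-89404415, plus strand): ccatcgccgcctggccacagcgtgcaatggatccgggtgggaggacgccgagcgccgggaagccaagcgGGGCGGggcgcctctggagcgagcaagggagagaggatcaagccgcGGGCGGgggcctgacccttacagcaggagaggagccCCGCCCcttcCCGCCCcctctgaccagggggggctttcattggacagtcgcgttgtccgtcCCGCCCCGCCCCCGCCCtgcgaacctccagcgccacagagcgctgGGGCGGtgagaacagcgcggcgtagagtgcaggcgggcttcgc
Bmpr1a (chr14:34502497-34502796, minus strand): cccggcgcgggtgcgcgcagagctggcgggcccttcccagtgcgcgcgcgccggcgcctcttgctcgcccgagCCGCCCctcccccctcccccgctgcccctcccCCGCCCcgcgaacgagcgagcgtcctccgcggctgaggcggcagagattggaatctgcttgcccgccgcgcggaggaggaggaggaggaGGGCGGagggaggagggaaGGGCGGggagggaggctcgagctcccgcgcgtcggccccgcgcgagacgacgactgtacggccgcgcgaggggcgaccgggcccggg
Wnt5b (chr6:119544298-119544597, minus strand): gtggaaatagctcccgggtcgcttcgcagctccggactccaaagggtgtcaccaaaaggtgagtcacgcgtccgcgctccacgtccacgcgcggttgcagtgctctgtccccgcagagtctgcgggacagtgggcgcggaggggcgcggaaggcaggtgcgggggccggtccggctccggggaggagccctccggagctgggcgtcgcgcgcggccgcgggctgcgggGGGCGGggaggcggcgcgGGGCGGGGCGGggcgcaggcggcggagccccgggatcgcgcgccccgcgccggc
The window of Fgfr2 is 43.7% G and C, those of Fzd4, Bmpr1a and Wnt5b are 72.7%, 79.3% and 78.0%, and the median over 32851 windows is 52.7%.

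In these windows GGGCGG occurred 8 times for Fzd4, 4 times for Bmpr1a, 3 times for Wnt5b and not for Fgfr2, and 35.7% of all windows hold it. On both strands the core promoter motif TATAAA, held by 13.6% of all windows, was also searched. The same was done for TTCNNNGAA, the site of STAT factors, held by 8.3%, and for CTTTGA, the site of TCF and LEF factors, held by 16.0%. None of these other motifs was found in the 4 windows, nor in those of Sfrp2 and Fgf11, which lacked GGGCGG too. Absence of these letters in one window says nothing about the factors, and the transcript start used in the gland was not measured.

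Other genes of the pathways were taken from fixed lists, whose counts stand beside 10.5% of all tested probe sets called higher and 10.8% called lower, and beside 34.8% with an unadjusted p under 0.05. For Wnt signalling, 1 of 6 tested secreted regulators and coreceptors fell and none rose, namely Lrp6, the Wnt coreceptor, from 5070 ± 393 to 3002 ± 230 (log2 difference -0.74, limma adjusted p 0.00383). Of 18 cytoplasmic and nuclear components 2 rose and none fell (median 0.15). These were Csnk1a1 (0.63, adjusted p 0.00824), a kinase that primes beta-catenin for degradation, and Tcf7l2 (0.58, adjusted p 0.0136), a DNA-binding partner of beta-catenin, but with the hybridisation controls as the scale both lay below 0 (-0.05 and -0.08).

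Of 4 tested Wnt target genes 0 passed limma's threshold, and 1, Ccnd1, had an unadjusted p under 0.05. The cell cycle gene Ccnd1 stood at 3838 ± 322 in the wild type and 2812 ± 546 in the LH transgenic group (log2 difference -0.45, adjusted p 0.0777), and Lef1 at 1249 ± 80.0 and 1472 ± 125 (0.22, adjusted p 0.287). The median of the 4 tested targets was 0.19. With the hybridisation controls as the scale 1 of them was called lower and 0 higher. Of the 11 listed targets on the array, those under the filter were not tested. Ccn4 had 346.4 ± 6.3 in the wild type and 117.0 ± 69.2 in the LH transgenic group, without overlap. Axin2 (386.9 ± 63.9 against 277.9 ± 78.0), Lgr5, Ccn5 and Mmp7 had lower LH transgenic means, with overlap. Cd44 and Ppard had higher ones, also with overlap.

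For FGF signalling, limma called 0 of 16 tested binding proteins and signalling genes (2 of 16 at an unadjusted p under 0.05, median 0.10) and 0 of 6 feedback and target genes (3 of 6 at an unadjusted p under 0.05, median -0.17). The 2 were Hs2st1, a heparan sulfate sulfotransferase (log2 difference 0.50, adjusted p 0.11), and Nras, a small GTPase of the MAP kinase route (0.36, adjusted p 0.131). In the feedback list Egr1, an early response gene, came nearest with 2480 ± 783 in the wild type and 1509 ± 184 in the LH transgenic group (log2 difference -0.65, limma adjusted p 0.0503). Etv4, a transcription factor induced by FGFs, had 761.6 ± 286.5 and 1301 ± 245 (0.76, adjusted p 0.0665). With the hybridisation controls as the scale, 5 of the 16 and 4 of the 6 were called lower and 0 higher. On that scale 3859 of all 7453 tested probe sets were called lower.

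For BMP signalling, 2 of 9 tested receptors and antagonists fell and none rose (median -0.25). The secreted antagonist gene Nbl1 went from 1080 ± 338 to 251.2 ± 143.8 (log2 difference -1.85, limma adjusted p 0.00383), and Eng, a coreceptor of endothelial cells, from 12843 ± 2344 to 5275 ± 840 (-1.27, adjusted p 0.00139). Of 10 tested Smads and target genes 2 rose and 4 fell (median -0.28). The BMP-induced inhibitors of differentiation Id3 (-1.21, adjusted p 0.00654), Id4 (-1.10, adjusted p 0.003) and Id1 (-1.08, adjusted p 0.00372) fell, as did Hey1 (-0.61, adjusted p 0.0176), whereas Id2 rose by 1.07 (adjusted p 0.0167) and Smad4, the Smad shared with TGF-beta signalling, by 0.77 (adjusted p 0.0117). Id2 (0.38, adjusted p 0.163) and Smad4 (0.09, adjusted p 0.751) were not called with the hybridisation controls as the scale.

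**Figure D5:**
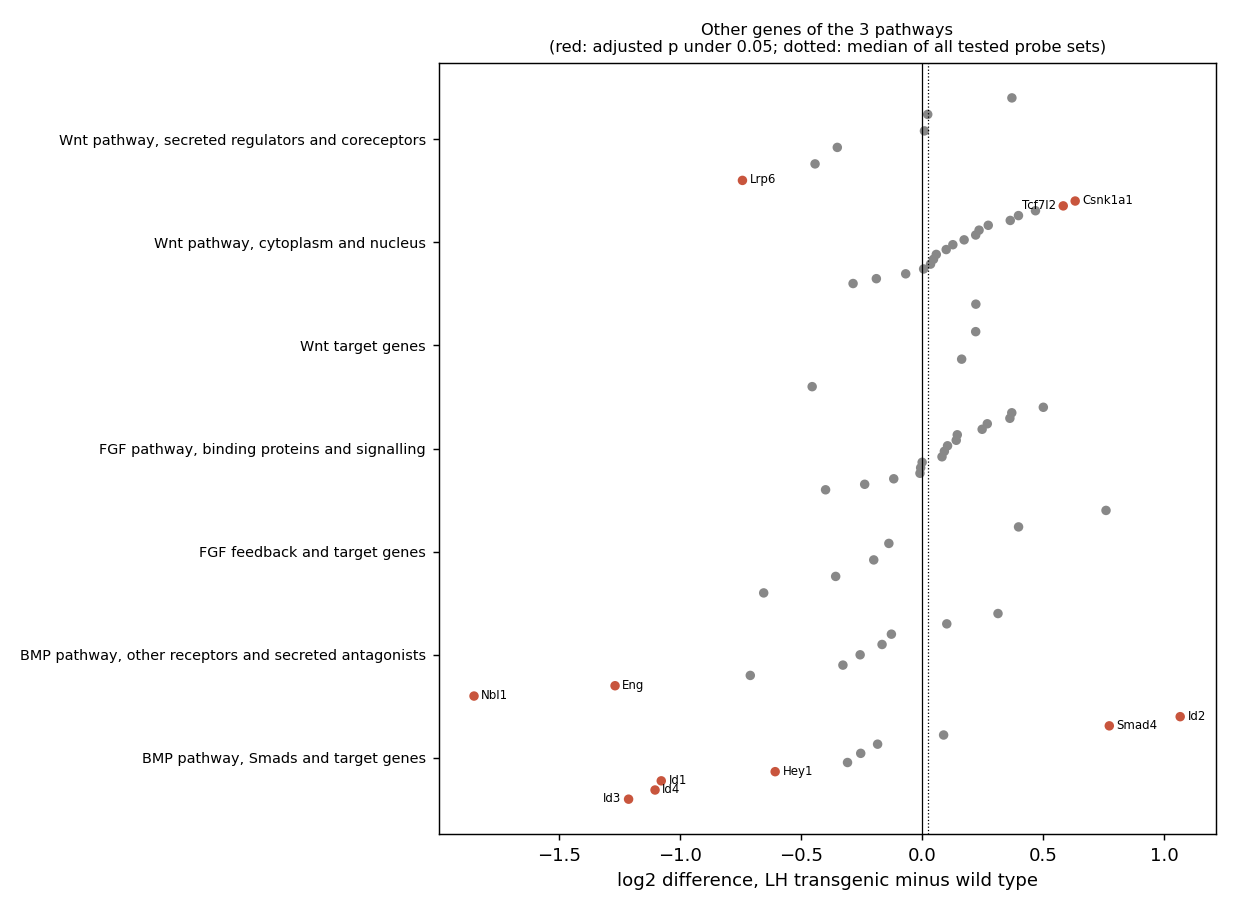
Log2 differences (LH transgenic minus wild type) of the tested genes in 7 fixed lists of other Wnt, FGF and BMP pathway genes, one point per gene. Red points with names have an adjusted p under 0.05, and the dotted line is the median of all tested probe sets (0.02). Named genes are found in the Wnt and BMP lists and none in the FGF lists.

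Markers of several cell types moved in the same comparison as the receptors. Of 10 adipocyte markers on the array 8 fell and none rose, and their summed signal was 155220 to 179438 in the wild type and 77896 to 89184 in the LH transgenic pools. Of 12 endothelial markers 9 fell (sums 37953 to 44416 against 17848 to 20719), and of 16 fibroblast and matrix markers 11 fell (167172 to 220393 against 107307 to 136285). Of 15 skeletal muscle markers 7 fell, with sums of 91166 to 105643 in the wild type and 19510, 23300 and 86303 in LH transgenic pools 1, 2 and 3. Of 17 luminal markers 5 rose and 3 fell (89871 to 101000 against 124615 to 138686), of 9 tested basal markers 1 rose and 1 fell (34015 to 40342 against 42377 to 44997), of 9 milk protein genes 8 rose (215733 to 376205 against 563806 to 696641), and of 11 macrophage markers 5 rose (47105 to 62854 against 81391 to 97316). With the hybridisation controls as the scale none of the 5 macrophage increases was called (0 higher and 2 lower in that list). On that scale 2 luminal markers were higher and 7 lower (list median -0.48 against 0.19), and 0 basal markers were higher and 5 lower. There 5 milk protein genes were higher, of which 4 were among the 8 increases above. No listed marker was at 0 on any array. The part of these markers in the results for Fgfr1, Fgfr2, Fzd4, Sfrp2, Wnt5b and Bmpr1a was not tested.

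When the mean log2 signal of the muscle markers was added to the model, which left 3 residual degrees of freedom, the calls of Fgfr2 93090_at (-1.44, adjusted p 0.00612), Fgfr1 (-0.88, adjusted p 0.0366), Fzd4 95771_i_at and 95772_r_at (-1.63 and -1.22, adjusted p 0.0144 and 0.025) and Wnt5b (1.05, adjusted p 0.0277) held. Fgfr2 93091_s_at went from -1.77 to -0.89 and was not called (limma adjusted p 0.221). Sfrp2 (-0.66, adjusted p 0.328), Bmpr1a (0.72, adjusted p 0.116) and Fgf11 95377_at (-0.61, adjusted p 0.204) were not called there either. The muscle level was 11.73, 11.88 and 11.72 in the wild type pools and 9.62, 9.97 and 11.63 in LH transgenic pools 1 to 3. It followed the group except in LH transgenic pool 3, so this fit cannot separate muscle level from group.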

How the data were processed

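RNA abundance was measured with 3 wild type and 3 LH transgenic Affymetrix arrays, each of a pool of 3 mice. The authors deposited one linear intensity per probe set and array, and the submitters' processing notes name MAS5. No detection call, software version or genome build was used here. The mean trimmed by 2% at each end was 1500.8 or 1500.9 on every array, so MAS5 scaling would hide a shift of most genes if there was one. The number of arrays limits the precision.

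Of 12488 probe sets 66 controls were left out. From the signals log2(signal + 80.0) was computed (80.0 is the 20th percentile), probe sets with a mean of at least 336.0 (40th percentile) were kept, and limma (lmFit, eBayes with a trend, no covariate) was fitted over 7453 probe sets, two-sided, with Benjamini-Hochberg adjustment. The pools came from different mice, nothing in the labels names a batch or pairs arrays, and pool numbers are names only. All 75 member identifiers were found in the GRCm38.p6 table and 0 symbols changed. Every member is named; members under the filter are given by signal, with no fold. In each pathway list at most 4 called genes in either direction are named, by size of change, or the 2 of lowest p if there were no calls. The Wnt targets under the filter are named as well. A list gene was read from its brightest probe set. Members and lists were chosen with earlier results of these data known. The fit was tested on simulated data. Other settings were quantile normalization, median centring, bacterial hybridisation controls as the scale, other pseudocounts and filters, eBayes without a trend or robust, muscle level as a covariate, and leaving out each pool. Software was R 4.3.3, limma 3.58.1, Python 3.11.15, pandas 2.3.3, numpy 2.4.6, scipy 1.17.1 and matplotlib 3.10.9.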

Additional observations from a re-analysis of the deposited data

How the results depend on the processing

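Of 370 values of single member probe sets under other settings, 332 kept their side of the threshold, 24 lost a call, 13 gained one and 1 called value changed sign, Bmpr1a with the bacterial hybridisation controls as the scale (log2 difference -0.026). On that scale 3999 of all probe sets were called, 3.5% of them higher against 49.2% in the fit reported, and 0 members rose and 15 fell. Without the filter on dim probe sets 1 member rose, and with the filter at the 60th percentile (mean of at least 933.0) 3 fell, of fewer tested. With skeletal muscle as a covariate 709 probe sets were called, 1 member rose and 4 fell. Leaving out each pool in turn gave 941 (without wild type pool 3) to 1641 called probe sets, with 1056 without wild type pool 1, 1 to 2 members higher and 5 to 7 lower. Quantile normalization, median centring, both pseudocounts, eBayes without a trend and robust eBayes gave 2 members higher and 7 or 8 lower, and the cause of the changes was not tested. No paired analysis was possible because the labels give the pools no shared numbers. Dim signal limits the 51 members under the filter.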
